A study of Mus musculus with 4 samples.

Results

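Conventional CD4 T cells are the helper lineage of T lymphocytes, which read antigen on MHC class II through the T-cell receptor and the CD4 co-receptor. They were selected on measured values, from spleen single-cell RNA sequencing, by a gate on raw UMI counts (unique molecular identifiers, 1 for each RNA molecule captured). A barcode belonged to the class with at least 2 UMIs over Cd3d, Cd3e and Cd3g, at least 1 Cd4 UMI, 0 UMIs of Cd8a, Cd8b1, Foxp3, Cd79a and Ms4a1, fewer than 2 of Ccl5 and fewer than 5 of Lyz2. The gate thus leaves out CD8 T cells, Foxp3-positive regulatory T cells, Ccl5-positive effector cells, B cells and myeloid cells. It held 1051 of 20476 barcodes that passed the filters, which asked for 200 or more genes and no more than 10% of UMIs from mitochondrial genes.

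The study profiled spleens taken 4 h after mice aged 10 weeks had received 100 µl of PBS, without or with 9 µg of TNF, into a vein. The mice were wild-type C57BL/6 or TRIF-KO on the C57BL/6 background, a knockout of the adaptor TRIF, and each of the 4 combinations of genotype and injection gave 1 library. The series asks how TRIF, together with other components of the Toll-like receptor 4 pathway, bears on the inflammatory response to TNF. Each set of 4 values lists the PBS and then the TNF library of wild-type, followed by the PBS and TNF libraries of TRIF-KO.

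TNF signals through the receptors TNFR1 (Tnfrsf1a) and TNFR2 (Tnfrsf1b), which release NF-kB dimers to the nucleus. NF-kB induces its own inhibitors, among them IkBa (Nfkbia) and A20 (Tnfaip3), so that the RNA of these feedback genes is a common readout of the pathway. TRIF, encoded by Ticam1, carries signals of Toll-like receptors 3 and 4 to NF-kB and to interferon regulatory factors. TNF in the circulation also causes the release of other cytokines and of glucocorticoids, whose targets in T cells include the JAK-STAT feedback genes Socs1 and Socs3 and the glucocorticoid-receptor targets Fkbp5 and Tsc22d3.

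The libraries held 119, 213, 378 and 341 CD4 T cells. These were 4.76% (95% exact binomial interval 3.96 to 5.66), 4.05% (3.54 to 4.62), 6.68% (6.04 to 7.36) and 4.83% (4.34 to 5.36) of the kept barcodes, and 28.0%, 22.3%, 31.1% and 26.3% of all cells with at least 2 CD3 UMIs. The share was lower in the TNF library than in the PBS library of each genotype, and among wild-type libraries the intervals overlapped. The gate reads raw UMIs, and the cells had median depths of 8391, 6009, 5589 and 8322 UMIs. The deepest cell of each library held 27476, 75442, 27915 and 22705 UMIs, so 1 cell weighs heavily in the wild-type TNF sum. At a threshold of 1 UMI the gate divides cells of similar level, since 48, 131, 215 and 168 members carried exactly 1 Cd4 UMI and 41, 214, 210 and 246 further cells met every other condition with 0. The members summed to 1062064, 1442105, 2246999 and 2913741 UMIs, and levels below are CPM, UMIs per 1000000 of that sum. All intervals are 95% intervals and cover counting error only. With 1 library per group there was no replicate check of any difference, no p-value was computed, and differences between mice cannot be told apart from differences between conditions.

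The label was checked against Cd4, Cd3e, Tcf7 and Lef1, of which the first 2 chose the cells. Tcf7, the transcription factor TCF-1 of naive and memory T cells, was at 542, 739, 490 and 732 CPM, and Lef1, its relative, at 511, 380, 558 and 425 CPM. Among single cells of equal depth (1500 UMIs), 50.4%, 70.8%, 48.5% and 64.8% held a Tcf7 UMI, against 0.0816% to 0.603% of B cells. These values fit T cells in all 4 libraries. They do not separate CD4 T cells from CD8 or regulatory T cells, a split that rests on the gate alone. Markers of other cells summed to 388, 432, 415 and 334 CPM over 15 B-cell genes, with all 15 detected in each library, and to 128, 158, 125 and 261 CPM over 19 neutrophil, monocyte and macrophage genes, of which 10, 15, 16 and 19 were detected. The neutrophil genes S100a8 (12.2, 22.9, 1.78 and 62.5 CPM) and S100a9 (21.7, 27.7, 8.46 and 93.4 CPM) were highest in the TRIF-KO TNF library and stayed out of all gene counts. Red-cell and platelet genes summed to 20031, 10970, 21757 and 17512 CPM, with Pf4 and Itga2b at 0 in the wild-type PBS library. NK-cell genes summed to 65.9, 234, 72.5 and 93.7 CPM, where 260 of the 264 Gzmb UMIs of the wild-type TNF library lay in 1 cell, and Ncr1 and Klra8 were at 0 in the first 3 libraries. Regulatory T-cell genes summed to 298, 309, 159 and 244 CPM although Foxp3 is at 0 by the gate. The part of these RNAs in the results was not tested.

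Ticam1, the targeted gene, gave 2, 1, 14 and 12 UMIs in these cells, which is too few to check the genotype. Its UMIs were present in the libraries labelled TRIF-KO, and the labels do not say which part of the gene is deleted. Tnfrsf1a was at 23.5, 9.01, 22.7 and 17.8 CPM and Tnfrsf1b at 9.42, 13.2, 9.35 and 12.4 CPM, both below the level at which a gene was compared. A gene entered the comparisons if the 4 libraries together gave 50 UMIs or more and 1 of them reached 50 CPM.

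The promoters of 6 genes described below are shown here, picked after the search from the genes at least 2-fold higher with TNF because each holds a match to the motif of its list. Each is the 300 bases from 250 before to 50 after the start site, from RefSeq on GRCm38.p6 and written on the gene's own strand, with motif matches in capitals. The motifs searched on both strands were the NF-kB consensus, the STAT site TTCNNNGAA, the interferon-stimulated response element (ISRE), read as GAAA, any 2 bases and GAAA again, and the AP-1 site TGANTCA. Of 27025 genes with a promoter of this length, 5.14%, 9.55%, 3.99% and 8.97% held them. Nfkbia (IkBa) lies at chr12:55492598-55492897, minus strand, Bcl3, a nuclear IkB protein, at chr7:19822706-19823005, minus strand, and Tnfaip3 (A20) at chr10:19015361-19015660, minus strand. Nfkb2 (the NF-kB subunit p100/p52) lies at chr19:46304487-46304786, plus strand, Socs3, the inhibitor of STAT3-activating receptors, at chr11:117969317-117969616, minus strand, and Isg15, the interferon-induced ubiquitin-like protein, at chr4:156200769-156201068, minus strand. Capitals mark the NF-kB consensus in the first 4, the STAT site in Socs3 and 3 overlapping ISRE matches in Isg15. Nfkb2 held 3 matches, the first 2 of which overlap, and Tnfaip3 held 2.
Nfkbia: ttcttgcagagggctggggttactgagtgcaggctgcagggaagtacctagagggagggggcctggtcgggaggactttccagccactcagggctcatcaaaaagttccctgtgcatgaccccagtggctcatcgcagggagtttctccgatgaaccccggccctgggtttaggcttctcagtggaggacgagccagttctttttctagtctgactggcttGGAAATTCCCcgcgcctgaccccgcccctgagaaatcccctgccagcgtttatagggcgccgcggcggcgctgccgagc
Bcl3: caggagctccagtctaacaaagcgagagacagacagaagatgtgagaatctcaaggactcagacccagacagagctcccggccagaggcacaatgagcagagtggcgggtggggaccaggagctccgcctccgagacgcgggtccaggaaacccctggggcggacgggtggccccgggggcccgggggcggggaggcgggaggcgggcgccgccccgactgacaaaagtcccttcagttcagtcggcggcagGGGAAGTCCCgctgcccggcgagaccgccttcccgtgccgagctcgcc
Tnfaip3: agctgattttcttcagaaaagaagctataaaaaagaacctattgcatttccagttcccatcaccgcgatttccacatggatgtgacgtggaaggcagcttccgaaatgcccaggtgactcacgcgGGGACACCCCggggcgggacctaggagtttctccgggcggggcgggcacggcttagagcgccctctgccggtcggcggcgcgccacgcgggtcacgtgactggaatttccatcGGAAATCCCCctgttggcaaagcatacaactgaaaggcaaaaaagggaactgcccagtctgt
Nfkb2: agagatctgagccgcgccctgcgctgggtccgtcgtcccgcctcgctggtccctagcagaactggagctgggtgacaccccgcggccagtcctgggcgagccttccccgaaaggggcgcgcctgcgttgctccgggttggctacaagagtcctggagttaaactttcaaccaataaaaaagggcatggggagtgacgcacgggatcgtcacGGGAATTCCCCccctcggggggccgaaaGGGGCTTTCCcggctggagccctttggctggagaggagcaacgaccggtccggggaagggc
Socs3: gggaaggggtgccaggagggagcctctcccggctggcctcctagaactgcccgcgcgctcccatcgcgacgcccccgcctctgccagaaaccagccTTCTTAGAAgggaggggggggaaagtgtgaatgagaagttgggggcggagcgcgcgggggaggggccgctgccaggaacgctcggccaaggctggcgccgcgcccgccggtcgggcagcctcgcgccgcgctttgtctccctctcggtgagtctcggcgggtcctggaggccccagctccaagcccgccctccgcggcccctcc
Isg15: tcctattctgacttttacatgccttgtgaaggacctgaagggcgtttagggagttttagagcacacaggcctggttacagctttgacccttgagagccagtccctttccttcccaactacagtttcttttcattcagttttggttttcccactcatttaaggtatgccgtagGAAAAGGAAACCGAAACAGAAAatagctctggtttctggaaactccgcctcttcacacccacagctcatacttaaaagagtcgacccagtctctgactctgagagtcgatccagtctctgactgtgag

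In wild-type mice, CD4 T cells of the TNF library had at least 2-fold higher levels of the NF-kB inhibitors Nfkbia and Tnfaip3, of Bcl3, of the JAK-STAT inhibitors Socs1 and Socs3 and of the early activation marker Cd69 than those of the PBS library. At least 2-fold lower were 5 of 24 genes on the list of the T-cell receptor complex and its signalling, Thy1 and Cd28 among them. So were 6 of 20 measured chaperones and 5 of 9 measured genes of the memory state. At least 2-fold higher were 113 of 2831 genes, 3.99%, and at least 2-fold lower 193, 6.82%. The median gene stood at -0.10 on the log2 scale, so values are best read against that shift. A gene could enter through a single library, and 67 of the 113 higher genes reached 50 CPM in no PBS library and 78 of the 193 lower genes in no TNF library. The filter lets in such genes because they differ, so the counts and medians of the lists describe the members measured and support no direction of a list. Of the genes past 2-fold, 36.9% were higher with CPM, 50.2% with median-of-ratios size factors and 46.9% with totals that left out mitochondrial, ribosomal, haemoglobin and immunoglobulin genes.

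Of the 38 genes of the NF-kB list 19 were measured, 10 of them through a TNF library only. In wild-type 8 were at least 2-fold higher with TNF, 7 of these being genes measured through a TNF library only, 0 were lower, and the median log2 ratio was 0.73. Nfkbia was the exception among the 8, since its PBS levels passed the filter. Nfkbia was at 137, 667, 158 and 414 CPM, a log2 ratio of 2.28 (2.03 to 2.54) in wild-type. Both TNF libraries lay above both PBS libraries, and the wild-type TNF library was highest. Bcl3 was at 13.2, 122, 12.5 and 70.0 CPM, a log2 ratio of 3.21 (2.43 to 4.11). Tnfaip3, the ubiquitin-editing enzyme that ends NF-kB signalling, was at 14.1, 79.7, 17.8 and 55.3 CPM, a log2 ratio of 2.50 (1.72 to 3.38). Both genes were near the bottom of the measured range in the PBS libraries. Nfkb2 was at 19.8, 88.1, 16 and 49.1 CPM, and Relb, its dimer partner in the non-canonical pathway, at 33.0, 78.4, 21.8 and 58.7 CPM. Birc3, the ubiquitin ligase cIAP2 of the TNF receptor complex, was at 26.4, 139, 27.6 and 74.5 CPM, a log2 ratio of 2.40 (1.82 to 3.02). The anti-apoptotic Bcl2a1b was at 20.7, 62.4, 25.4 and 55.3 CPM, but its family has near-identical copies between which reads can be split, so its level is uncertain.

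**Figure D1:**
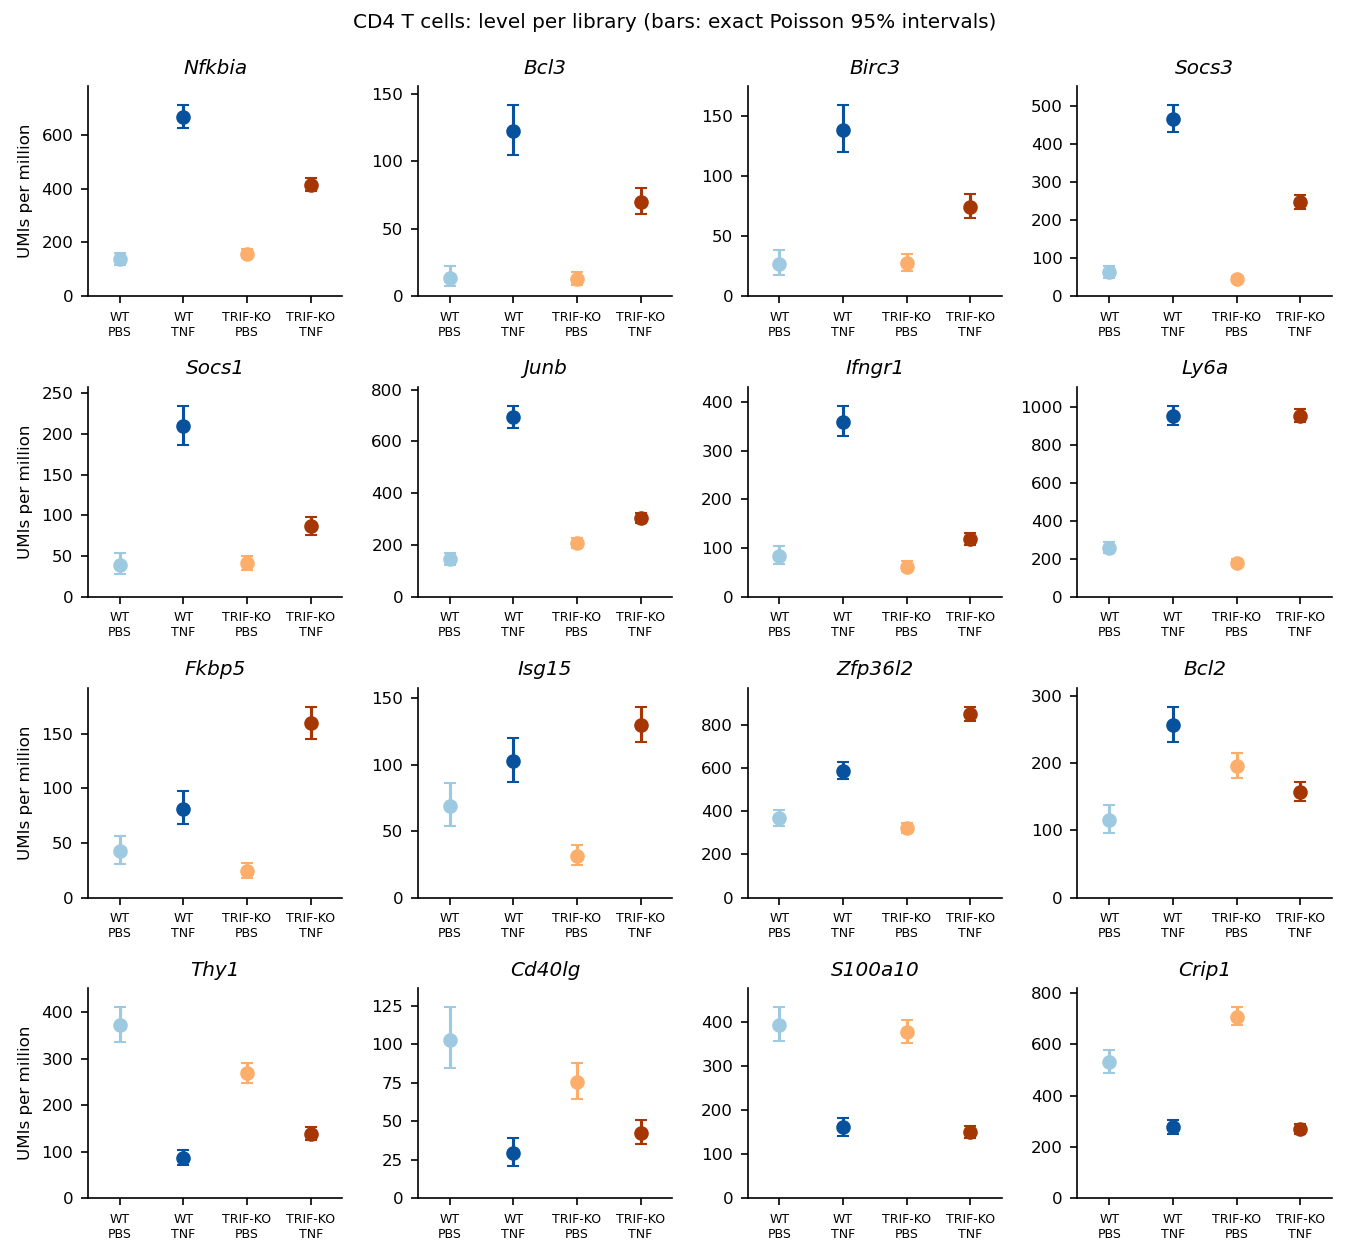
Levels of 16 genes in CD4 T cells, in CPM (vertical axes, from 0), for each of the 4 libraries, with exact Poisson 95% intervals as bars. Nfkbia reached 667 in the wild-type TNF library and 414 in the TRIF-KO TNF library, Ly6a 952 in both, and Fkbp5 was highest in the TRIF-KO TNF library at 160.

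The JAK-STAT list had 6 of 21 measured genes at least 2-fold higher in wild-type, 2 of which (Bcl3 and Socs1) were measured through a TNF library only, 0 lower and a median of 0.53. Socs3 was at 62.1, 467, 44.5 and 247 CPM, a log2 ratio of 2.91 (2.54 to 3.30). Socs1, the corresponding inhibitor of interferon and common gamma-chain receptors, was at 39.5, 209, 40.9 and 86.5 CPM, a log2 ratio of 2.40 (1.94 to 2.91). The PBS libraries of both genotypes lay close together for these inhibitors. Ifngr1, the ligand-binding chain of the interferon-gamma receptor, was at 84.7, 360, 61.9 and 119 CPM, a log2 ratio of 2.09 (1.76 to 2.43). Junb, an AP-1 subunit, was at 146, 693, 206 and 304 CPM, a log2 ratio of 2.25 (2.0 to 2.50). Both were highest in the wild-type TNF library, with the other 3 libraries well below it. Il4ra, a chain of the interleukin-4 receptor, was at 51.8, 109, 64.5 and 77.2 CPM, and the sixth gene, Bcl3, is also on the NF-kB list. Stat3 itself was at 97.9, 194, 83.2 and 155 CPM, just under 2-fold.

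Early activation and costimulation genes had 14 of 25 members measured, 7 of them at least 2-fold higher, 1 lower and a median of 1.01, and 5 of the 7 were measured through a TNF library only. Odc1, the rate-limiting enzyme of polyamine synthesis, was at 41.4, 220, 36.5 and 49.4 CPM, and 41 of the 317 UMIs of the wild-type TNF library lay in 1 cell. Tnfrsf4 (OX40) was at 19.8, 104, 6.68 and 66.6 CPM, and Tnfrsf18 (GITR) at 36.7, 147, 41.8 and 84.4 CPM, both costimulatory receptors of the TNF receptor family that regulatory T cells also express. The transcription factor Batf was at 31.1, 122, 27.6 and 42.2 CPM, Hif1a, of the hypoxia response, at 68.7, 256, 52.5 and 112 CPM, and the early activation marker Cd69 at 92.3, 258, 121 and 222 CPM. For Odc1 and Batf the wild-type TNF library stood apart from the other 3, while for Tnfrsf4 and Cd69 both TNF libraries were high. The member that was lower was Cd40lg, the CD40 ligand by which helper cells activate B cells, at 103, 29.1, 75.2 and 42.6 CPM. Immediate-early genes, which tissue handling also induces, had 5 of 14 measured members higher, among them Zfp36 (70.6, 197, 90.8 and 116 CPM), Jun (49.0, 112, 59.6 and 104 CPM) and Rgs1, a regulator of G-protein signalling (5.65, 68.0, 15.1 and 24.0 CPM).

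Interferon-stimulated genes had 4 of 39 measured members at least 2-fold higher in wild-type, 1 lower and a median of 0.36. Ly6a (Sca-1) was at 258, 952, 178 and 952 CPM, a log2 ratio of 1.88 (1.70 to 2.08). Zbp1, a sensor of Z-form nucleic acid, was at 51.8, 133, 57.0 and 139 CPM, and Irf1, an interferon regulatory factor, at 78.1, 166, 76.5 and 93.4 CPM. Rsad2 (viperin) was the member that was lower, at 85.7, 5.55, 15.6 and 57.0 CPM, but 57 of its 91 UMIs in the wild-type PBS library lay in 1 cell and 4 cells held them all. Its direction turned when cells of another programme were left out, to 1.59. MHC class I and antigen-processing genes had 0 of 22 members past 2-fold in either direction and a median of 0.21.

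Of the glucocorticoid-responsive genes, 3 of 15 measured were at least 2-fold higher in wild-type, all 3 measured through a TNF library only, with a median of 0.41. Of these, Mt1 and Mt2 each rested mostly or wholly on 1 cell of the wild-type TNF library. For Mt1 the top cell held 78 of the 86 UMIs and for Mt2 all 73, and whether it was the same cell was not checked. Bcl2l11, the pro-apoptotic BIM, was the third, at 38.6, 90.8, 27.6 and 61.4 CPM. Fkbp5, a co-chaperone of the glucocorticoid receptor, was at 42.4, 81.1, 24.0 and 160 CPM, and Tsc22d3 (GILZ) at 173, 218, 174 and 327 CPM. Both genes were highest in the TRIF-KO TNF library. Genes of cell survival and death had 5 of 13 measured members higher and 0 lower, and 4 of the 5 were measured through a TNF library only. The 5 were Birc3, Bcl2a1b, Bcl2l11, the anti-apoptotic Bcl2 (115, 257, 195 and 157 CPM) and the death receptor Fas (31.1, 62.4, 26.3 and 25.7 CPM). The cold-inducible RNA-binding proteins Rbm3 (169, 693, 356 and 574 CPM, log2 ratio 2.04, 1.81 to 2.28) and Cirbp (35.8, 206, 70.8 and 132 CPM) were also higher with TNF.

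The list of the T-cell receptor complex and its signalling had 0 of 24 members at least 2-fold higher, 5 lower and a median of -0.53 in wild-type. The chains of the receptor complex on the list, Trac, Trbc1, Trbc2 and Cd247, were not among the 5. Thy1, a surface glycoprotein of T cells, was at 372, 86.7, 269 and 139 CPM, a log2 ratio of -2.10 (-2.40 to -1.81). Themis, an adaptor of thymocyte selection, was at 129, 48.5, 108 and 71.7 CPM, and Cd5, an inhibitory co-receptor, at 186, 86.0, 188 and 154 CPM. The adaptor Lcp2 (SLP-76) was at 153, 71.4, 115 and 94.0 CPM, and the costimulatory receptor Cd28 at 193, 91.5, 212 and 168 CPM. In each of these genes the wild-type TNF library was lowest. The kinase Lck, at 449, 253, 407 and 327 CPM, stayed under 2-fold, as did the CD3 chain Cd3e, which the gate used (577, 374, 499 and 402 CPM).

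The memory and effector list had 9 of 26 genes measured, of which 5 were at least 2-fold lower in wild-type, 3 of these measured through a PBS library only, 0 were higher and the median was -1.11. S100a10, an annexin partner of effector cells, was at 394, 161, 377 and 150 CPM, a log2 ratio of -1.29 (-1.53 to -1.06). Crip1, a LIM-domain protein of effector and memory cells, was at 530, 278, 708 and 271 CPM, and the integrin chain Itgb1 at 150, 40.2, 72.1 and 40.5 CPM. Both TNF libraries were the lower ones in each gene. A few cells weigh heavily here, since 1 cell held 101 of the 563 Crip1 UMIs and 62 of the 159 Itgb1 UMIs of the wild-type PBS library. The list turned direction, to a median of 0.27, when the gate was applied at an equal depth of 1500 UMIs, which left 36, 71, 143 and 99 cells.

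Chaperones had 6 of 20 measured genes at least 2-fold lower in wild-type, 3 of these measured through a PBS library only, 0 higher and a median of -0.39. Dnaja1, an HSP40 co-chaperone, was at 476, 198, 377 and 253 CPM, and Hsp90b1, the HSP90 of the endoplasmic reticulum, at 239, 110, 128 and 114 CPM. Hsp90b1 was highest in the wild-type PBS library, with the other 3 libraries close together. Of 21 migration and adhesion genes, 3 were higher and 3 lower, the latter Itgb1, Itga4 (161, 63.8, 167 and 87.9 CPM), its partner in the integrin VLA-4, and Itgb2 (128, 53.4, 126 and 74.1 CPM), the beta chain of LFA-1. The chemokine receptor Ccr7 of lymph-node homing was at 185, 212, 240 and 170 CPM, and the egress receptor S1pr1 at 323, 286, 359 and 222 CPM, neither of them past 2-fold. The naive-state list had 1 of 20 genes at least 2-fold higher in wild-type and 2 lower, shares near those over all genes. The higher one was Igfbp4, an IGF-binding protein of naive T cells, at 301, 746, 350 and 876 CPM. The lower ones were Dapl1, another gene of naive T cells, at 375, 181, 363 and 187 CPM, and Rflnb (refilin B), at 209, 61.7, 171 and 127 CPM. Igfbp4 and Dapl1 thus pointed in opposite directions within the list, each by a similar amount in both genotypes.

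Genes outside these lists that led the ranking were partly those of single cells. In the wild-type TNF library 1 cell held all 372 UMIs of Car1, an erythroid carbonic anhydrase, and 1 cell held 90 of the 93 of C1qtnf12. Cells with an erythroid, cycling or cytotoxic programme numbered 3, 3, 6 and 5 among the CD4 T cells. After leaving out the top cell of each gene, Plaur, the urokinase receptor (2.82, 56.9, 3.12 and 18.9 CPM), Elovl6, a fatty-acid elongase (5.65, 68.0, 5.79 and 25.1 CPM), and the kinase Map3k8 of the TNF and Toll-like receptor pathways (5.65, 68.0, 3.12 and 16.5 CPM) ranked among the highest with Bcl3, Socs3 and Nfkbia. Lowest were Id3, an inhibitor of E proteins (50.8, 6.93, 56.5 and 35.0 CPM), Art2b, an ADP-ribosyltransferase (53.7, 5.55, 47.2 and 12.7 CPM), and Adgre5 (CD97; 115, 24.3, 142 and 58.0 CPM). Hsd11b1, which regenerates active glucocorticoid, was at 137, 29.8, 107 and 50.8 CPM.

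In TRIF-KO mice Nfkbia, Tnfaip3, Bcl3, Socs1 and Socs3 were again at least 2-fold higher in the TNF library, as were the glucocorticoid-receptor target Fkbp5 and 10 of 39 measured interferon-stimulated genes, with Ly6a and Isg15 among them. The genes of the T-cell receptor complex and signalling list stayed under 2-fold. At least 2-fold higher were 68 of 2831 genes, 2.4%, and at least 2-fold lower 29, 1.02%, with a median gene at 0.03. The NF-kB list had 7 of 19 genes at least 2-fold higher, 6 of them measured through a TNF library only, and 0 lower, with a median of 0.58. Log2 ratios were 1.39 for Nfkbia (1.22 to 1.56), 2.49 for Bcl3 (1.92 to 3.12), 1.63 for Tnfaip3 (1.13 to 2.17) and 1.43 for Birc3 (1.02 to 1.86). Nfkbiz, a nuclear IkB protein, was past 2-fold in wild-type and not here. Of the 21 JAK-STAT genes, 3 were at least 2-fold higher, Bcl3, Socs3 (2.47, 2.17 to 2.79) and Socs1 (1.08, 0.73 to 1.44), 2 of them measured through a TNF library only. Tnfrsf4 (3.32, 2.56 to 4.18), Hif1a (1.09) and Tnfrsf18 (1.01) were the 3 of 14 activation genes that were higher. Of the 3, 2 were measured through a TNF library only, and 51 of the 194 Tnfrsf4 UMIs of the TRIF-KO TNF library lay in 1 cell. That list's median was 0.33, and -0.04 when cells with Ikzf2, Il2ra or Ctla4 UMIs, genes of regulatory T cells, were left out.

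Interferon-stimulated genes had 10 of 39 measured members at least 2-fold higher in TRIF-KO, 4 of them measured through a TNF library only, 0 lower and a median of 0.59. Ly6a had a log2 ratio of 2.42 (2.27 to 2.57). Isg15 was at 68.7, 103, 31.2 and 130 CPM, a log2 ratio of 2.06 (1.69 to 2.45), and 43 of its 379 UMIs in the TRIF-KO TNF library lay in 1 cell. Ifit1, which binds viral RNA, was at 29.2, 40.9, 18.2 and 53.5 CPM, the GTPase Gbp2 at 31.1, 60.3, 34.7 and 89.2 CPM, the ubiquitin ligase Herc6 at 47.1, 41.6, 26.3 and 62.1 CPM and Xaf1 at 45.2, 58.2, 24.0 and 60.4 CPM. For Isg15, Ifit1, Herc6 and Xaf1 the TRIF-KO PBS library was the lowest of the 4 and the TRIF-KO TNF library the highest. Among the glucocorticoid-responsive genes 5 of 15 were at least 2-fold higher, 4 of them measured through a TNF library only, with a median of 0.92. Of the 5, Mt1 (19 of 24 UMIs) and Mt2 (8 of 8) again lay mostly or wholly in 1 cell each. Fkbp5 had a log2 ratio of 2.73 (2.32 to 3.17), and Zfp36l2, an RNA-binding protein that promotes decay of mRNA, was at 369, 588, 322 and 853 CPM, a log2 ratio of 1.41 (1.29 to 1.53). Ddit4 (REDD1), an inhibitor of mTORC1, was at 173, 105, 121 and 235 CPM. The interleukin-7 receptor chain Il7r, which glucocorticoid induces in T cells, was at 699, 1003, 498 and 979 CPM.

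The memory list had 4 of 9 genes at least 2-fold lower in TRIF-KO with TNF and a median of -0.95, among them S100a10 (-1.33, -1.50 to -1.16), Crip1 (-1.39, -1.51 to -1.26) and Lgals1, galectin-1 (175, 130, 207 and 73.1 CPM). Chaperones had 1 of 20 lower, Hsph1 (58.4, 15.3, 32.9 and 14.8 CPM), and the T-cell receptor list 0 of 24, with a median of -0.15. Cell-cycle genes had 4 of 10 lower, but 37 of the 56 Mki67 UMIs of the TRIF-KO PBS library lay in 1 cell. Bbc3 (PUMA), a pro-apoptotic protein induced by p53 and by glucocorticoids, was at 25.4, 20.1, 30.3 and 71.7 CPM, highest in the TRIF-KO TNF library. Neb, nebulin, led the ranking at 22.6, 34.0, 2.67 and 57.3 CPM, a log2 ratio of 4.42 (3.27 to 5.89) from 6 UMIs in the PBS library. The transcription factors Etv6 (16.9, 60.3, 8.90 and 55.6 CPM) and Arid5b (94.2, 279, 54.7 and 212 CPM) and Ndrg3 (88.5, 372, 61.4 and 226 CPM) were higher with TNF in both genotypes.

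**Figure D2:**
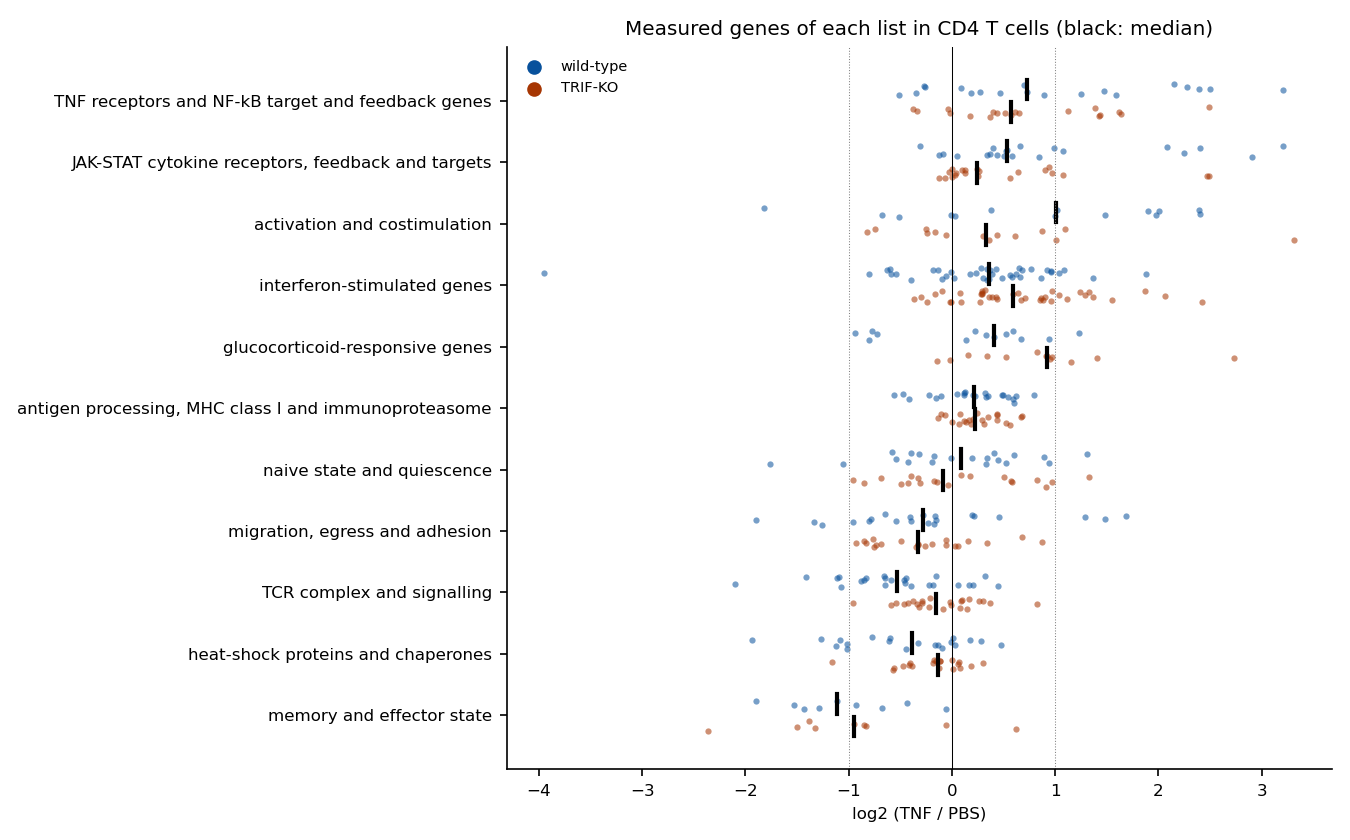
Log2 ratio of TNF to PBS (horizontal axis) for each measured gene of 11 lists (rows) in CD4 T cells of wild-type (blue) and TRIF-KO mice (brown), with the list's median as a black line and 2-fold as dotted lines. The NF-kB list has medians of 0.73 and 0.58, the list of the T-cell receptor complex and signalling -0.53 and -0.15, and the glucocorticoid list 0.41 and 0.92. Members could pass the filter through a TNF library only or a PBS library only, so the medians support no direction of a list.

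Of the 8 NF-kB list genes at least 2-fold higher with TNF in wild-type, 6 had a promoter in the table (Nfkbiz and Relb did not) and 4 held the consensus, namely the 4 printed. Of the 6 JAK-STAT genes at least 2-fold higher, all 6 had a promoter and only that of Socs3 held the STAT site. Of the 10 interferon-stimulated genes at least 2-fold higher in TRIF-KO, 6 had a promoter and 4 held the ISRE, those of Isg15, Ifit1, Rsad2 and Gbp2. Of the 5 immediate-early genes at least 2-fold higher in wild-type, 3 had a promoter and 0 held the AP-1 site. A match describes letters in the window and is neither a bound site nor a cause, and a window without a match says nothing of the factor.

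The responses were set against each other as the log2 ratio in TRIF-KO minus that in wild-type. In TRIF-KO the difference from PBS was smaller for Junb, Odc1, Socs1 and Ifngr1 and larger for Fkbp5, Ddit4 and several interferon-stimulated genes. At least 1 higher on this scale were 145 of 2827 genes, 5.13%, and at least 1 lower 66, 2.33%, with a median gene at 0.13. Of the genes past that size 68.7% were higher with CPM, 45.5% with median-of-ratios size factors and 51.1% with the reduced totals, so the excess of higher genes rests on the scaling. A response that is closer to 0 in TRIF-KO counts as higher where the wild-type gene was below its PBS level.

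Of the NF-kB list 0 of 19 genes differed by 1 or more, and the median difference was -0.12. Nfkbia differed by -0.89 (-1.19 to -0.58) and Birc3 by -0.95 (-1.65 to -0.25), intervals that lie below 0, whereas the intervals of Bcl3 (-1.65 to 0.26), Tnfaip3 (-1.75 to 0.08), Nfkb2 (-1.37 to 0.32) and Relb (-0.53 to 0.89) include 0. Of 21 JAK-STAT genes 3 were lower by 1 or more, with a median of -0.43. Junb differed by -1.68 (-1.98 to -1.39), Socs1 by -1.32 (-1.89 to -0.74) and Ifngr1 by -1.14 (-1.57 to -0.71), while Socs3 differed by -0.43 (-0.90 to 0.04). Its interval includes 0 and ends short of a 2-fold difference. The activation list had 3 of 14 lower and a median of -0.63, with Odc1 at -1.96 (-2.56 to -1.36) and Batf at -1.35 (-2.04 to -0.66). Rgs1 (-2.82, -4.11 to -1.54) and Crybg1 (-2.24, -3.05 to -1.43; 16.9, 126, 28.9 and 44.6 CPM) were among the lowest of all genes.

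Glucocorticoid-responsive genes had 2 of 13 members higher by 1 or more, Fkbp5 (1.79, 1.15 to 2.43) and Ddit4 (1.67, 1.30 to 2.04), 0 lower, and a median of 0.58. Interferon-stimulated genes had 4 of 39 higher and 1 lower, with a median of 0.30, among them Isg15 (1.48, 0.94 to 2.03), Herc6 (1.41, 0.73 to 2.10) and Ifit1 (1.06, 0.27 to 1.86). Isg15 turned to -0.79 with the gate at equal depth, and 31 of its 73 UMIs in the wild-type PBS library lay in 1 cell. The list of the T-cell receptor complex and signalling had 2 of 24 higher and a median of 0.43, among them Thy1 (1.14, 0.80 to 1.49). Rbm3 differed by -1.35 (-1.61 to -1.09) and Cirbp by -1.61 (-2.16 to -1.06). Igfbp4 differed by 0.02 (-0.20 to 0.23) and S100a10 by -0.04 (-0.32 to 0.25), so for these genes a difference of 2-fold between the responses lies outside the counting interval. The responses share no library, but each rests on 1 PBS and 1 TNF library.

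**Figure D3:**
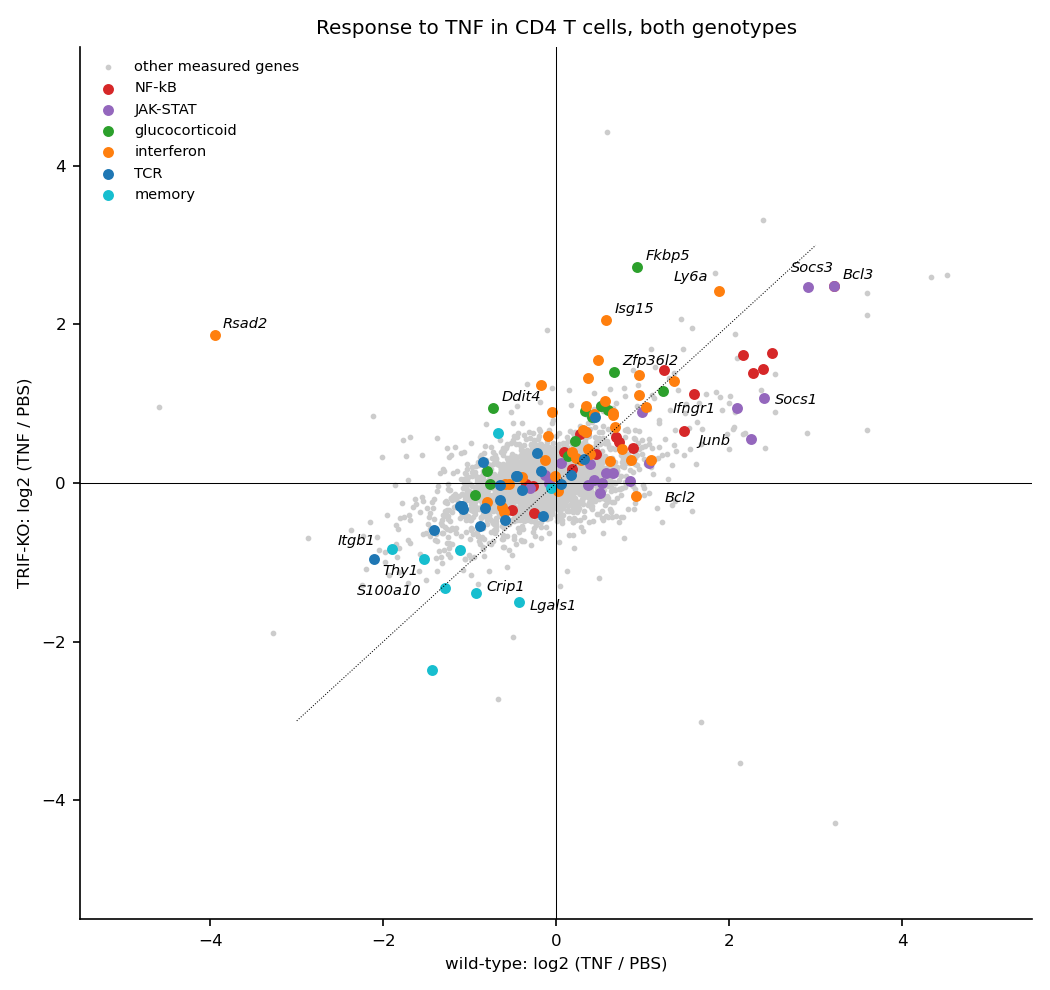
Log2 ratio of TNF to PBS in wild-type (horizontal axis) against that in TRIF-KO (vertical axis) for measured genes of CD4 T cells, without genes at 0 in a library, coloured by list (a gene on 2 lists has the colour of the later one), with equality dotted. Junb (2.25 and 0.56) and Socs1 (2.40 and 1.08) lie below the dotted line, Fkbp5 (0.94 and 2.73) above it.

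Between genotypes after PBS, Ikzf2 and 3 of 9 measured memory genes were at least 2-fold lower in TRIF-KO and Rbm3 was higher. Some of the differences lay in single cells or, for Ikzf2, in few cells. In the TRIF-KO PBS library 10 of 2828 genes were at least 2-fold higher than in the wild-type PBS library, 0.354%, and 34 lower, 1.2%, with a median gene at -0.08. Of them 22.7% were higher with CPM, 41.0% with median-of-ratios size factors and 37.8% with the reduced totals. These libraries differ in depth, with medians of 8391 and 5589 UMIs per cell, and the counts moved with the setting, to 96 higher and 143 lower with cells thinned to 1500 UMIs and to 81 and 76 with the gate at equal depth. The part of depth was not tested. Of the memory list 3 of 9 measured genes were at least 2-fold lower in TRIF-KO, namely Itgb1, Maf, a transcription factor of effector and follicular helper cells (74.4, 46.5, 36.9 and 57.0 CPM), and S100a4, a calcium-binding protein of memory cells (182, 67.3, 82.8 and 16.1 CPM). In the wild-type PBS library 156 of the 193 S100a4 UMIs lay in 1 cell. Itgb1 there also rested in part on 1 cell, as given above. A different starting level of these genes was thus not separated from single cells, and each TNF response is relative to its own PBS library. Lower as well were 2 of 10 cell-cycle genes, Mki67 and Top2a, with 48 of 66 and 49 of 58 wild-type UMIs in 1 cell each, and 2 of 39 interferon-stimulated genes, Isg15 and Rsad2. Of the NF-kB, JAK-STAT and glucocorticoid lists 0 measured genes passed 2-fold in either direction. Rbm3 was higher by 1.08 (0.85 to 1.32) and Cirbp by 0.98 (0.47 to 1.53). Ikzf2 (Helios), a factor of regulatory and activated T cells, was lower, at 101, 38.8, 24.5 and 36.4 CPM (-2.04, -2.54 to -1.56). Its 107 UMIs in the wild-type PBS library lay in 13 of 119 cells, 29 of these UMIs in 1 cell. In the TRIF-KO PBS library its 55 UMIs lay in 14 of 378 cells, so the difference rests on few cells. Ranked lower for single cells were Tmcc2, with 50 of 71 wild-type UMIs in 1 cell, and Tfdp2, with 71 of 93.

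After TNF, CD4 T cells of the TRIF-KO library had at least 2-fold lower levels of Odc1, Batf, Hif1a, Socs1, Ifngr1 and Junb than those of the wild-type library, and higher levels of several regulators that were low in wild-type. Here 32 of 2831 genes were at least 2-fold higher, 1.13%, and 57 lower, 2.01%, with a median gene at 0.05. The balance turned with the setting, to 170 higher and 81 lower with cells thinned to 1500 UMIs, 83 and 65 with a stricter gate (2 Cd4 and 3 CD3 UMIs), 66 and 61 at 3500 UMIs and 38 and 33 without the top cell of each gene. Of the activation list 5 of 14 were lower and 0 higher, and Odc1 was lower by -2.15 (-2.45 to -1.86) on the log2 scale. Of the JAK-STAT list 3 of 21 were lower and 0 higher, and Ifngr1 stood at -1.60 (-1.80 to -1.40). Higher were Dtx1 (Deltex, 39.5, 7.63, 75.2 and 49.8 CPM; 2.71, 1.82 to 3.74), Id3 (2.34, 1.40 to 3.44), the phosphatase Dusp2 (97.9, 109, 151 and 340 CPM; 1.64, 1.40 to 1.90) and Bbc3 (1.83, 1.27 to 2.45). So were Zbtb7b (ThPOK), the factor that commits thymocytes to the CD4 lineage, at 49.0, 10.4, 56.5 and 35.7 CPM, and the costimulatory receptor Cd27, at 272, 86.7, 252 and 204 CPM. For Dtx1, Id3, Zbtb7b and Cd27 the wild-type TNF library was the low one, whereas for Dusp2 and Bbc3 the TRIF-KO TNF library was the high one. This comparison and the wild-type response share the wild-type TNF library, so the same library enters both.

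How widely the response was spread was read from single cells thinned to 1500 UMIs each, with 119, 212, 377 and 341 cells kept and 0, 1, 1 and 0 left out as shallower. A Socs3 UMI was found in 5.88% (2.40 to 11.7), 54.7% (47.8 to 61.5), 6.63% (4.34 to 9.63) and 26.7% (22.1 to 31.7) of CD4 T cells, and in 30.3%, 86.9%, 19.6% and 69.2% without thinning. In B cells, with median depths of 5985.5, 4127.5, 3859 and 5700 UMIs, the thinned shares were 1.31%, 18.8%, 0.778% and 9.56%. The T-cell shares were above those of B cells in every library, and B cells had more Socs3 with TNF as well. Nfkbia was found in 16.8% (10.6 to 24.8), 55.7% (48.7 to 62.5), 20.2% (16.2 to 24.6) and 43.1% (37.8 to 48.6) of thinned cells (56.3%, 90.1%, 48.7% and 88.6% without thinning), against 29.8% to 33.1% of thinned B cells. Ly6a was found in 25.2%, 62.3%, 21.0% and 66.3% (68.1%, 87.8%, 43.7% and 94.1% without thinning), against 30.9% to 39.5% of B cells, which express it themselves. Thy1 was found in 47.9% (38.7 to 57.2), 9.43% (5.86 to 14.2), 27.6% (23.1 to 32.4) and 18.5% (14.5 to 23), against 0.0816% to 0.223% of B cells, and in 88.2%, 31.9%, 70.1% and 55.7% without thinning. Higher Nfkbia, Socs3 and Ly6a and lower Thy1 with TNF were thus spread over a large share of the cells and did not rest on a few.

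Summed list UMIs were read at 3500 UMIs per cell, a depth chosen after seeing the data. It left out 1, 7, 17 and 1 shallower cells. The NF-kB list had medians of 8, 12, 8 and 10 per cell and a 10th percentile of 4, 7, 4 and 5. The JAK-STAT list had medians of 11, 21, 10 and 14 and 10th percentiles of 6, 13, 5 and 8. At this depth the 10th percentile of the wild-type TNF cells lay above the median of the PBS cells for the JAK-STAT list. For the NF-kB list it lay just under that median. At the planned 1500 UMIs the wild-type TNF 10th percentile was 5 for the JAK-STAT list, equal to the wild-type PBS median of 5. For the NF-kB list it was 2 there, against a wild-type PBS median of 4. At 3500 UMIs the glucocorticoid list had medians of 9.5, 13, 8 and 14. The memory list had medians of 4, 2, 5 and 2 with 90th percentiles of 13.3, 8, 13 and 9, and its variance over the mean was 23, 13.9, 15.0 and 7.29, against 1.66 to 2.71 for the glucocorticoid list. The interferon list had 7.31, 8.68, 6.23 and 13.45, which is above the memory list in the TRIF-KO TNF library. Memory-state RNA was thus held less evenly than that of the glucocorticoid list. Single cells weigh on these values, since 1 cell held 156 of the 193 S100a4 UMIs of the wild-type PBS library.

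**Figure D4:**
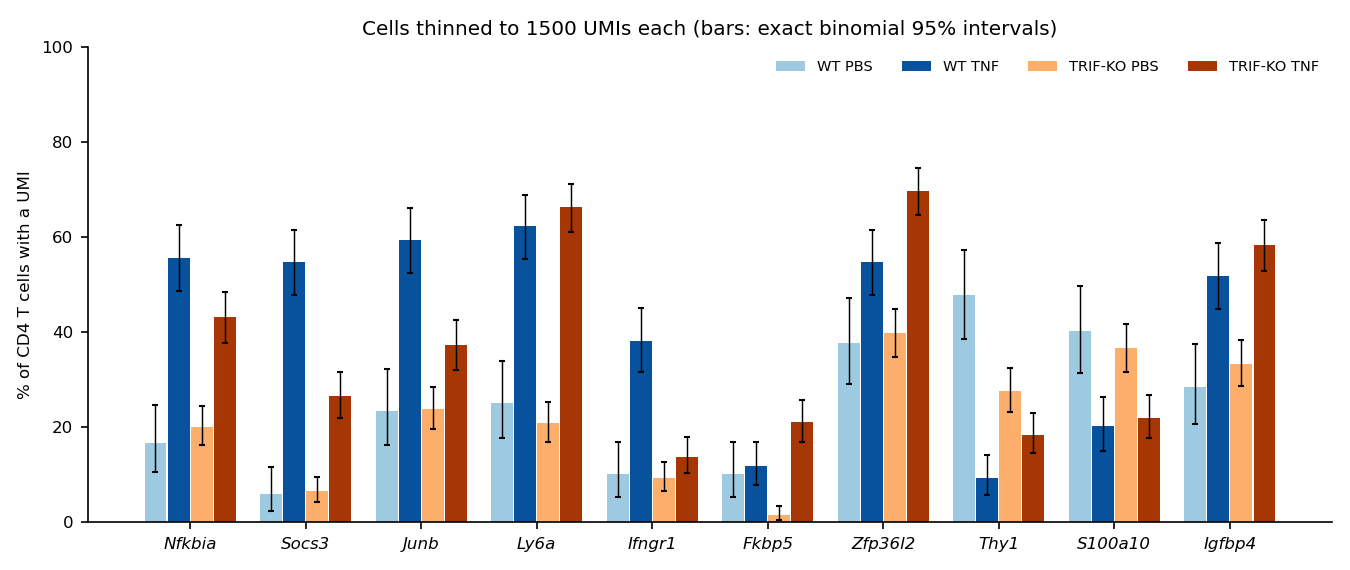
Share of CD4 T cells with at least 1 UMI of 10 genes (vertical axis, percent) after thinning each cell to 1500 UMIs, by library, with exact binomial 95% intervals as bars. Socs3 was found in 54.7% of cells of the wild-type TNF library and 5.88% of the wild-type PBS library, Thy1 in 9.43% and 47.9%.

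Naive-like CD8 T cells and B cells of the same libraries, gated in the same way, were set beside CD4 T cells. The median gene stood at -0.10, -0.15 and -0.12 with TNF in wild-type CD4 T cells, CD8 T cells and B cells. The NF-kB list had medians of 0.73 in CD4 T cells (19 genes), 0.62 in CD8 T cells (18) and -0.06 in B cells (14). The genes had passed the filter in CD4 T cells and in the class itself. Of the 19, 10 passed in CD4 T cells through a TNF library only. List medians therefore do not show where CD4 T cells differ. Nfkbia was at 199, 484, 175 and 261 CPM in CD8 T cells, and the wild-type log2 ratio of CD4 T cells exceeded theirs by 0.99 (0.69 to 1.30). It was at 251, 238, 255 and 256 CPM in B cells, level across the 4 libraries. Odc1 exceeded the CD8 value by 1.47 (0.89 to 2.05), whereas Ly6a and Igfbp4 stood below it by -1.22 (-1.66 to -0.79) and -0.79 (-1.08 to -0.51), with CD8 levels of 30.6, 266, 20.2 and 327 CPM for Ly6a and 107, 460, 124 and 518 CPM for Igfbp4. Socs3 differed by 0.11 (-0.35 to 0.58), with CD8 levels of 58.5, 405, 39.7 and 200 CPM. Bcl2 in CD8 T cells, at 218, 306, 218 and 174 CPM, was highest in the wild-type TNF library as in CD4 T cells, and Thy1, at 391, 146, 343 and 218 CPM, was lowest there in both. The glucocorticoid list, with genes chosen in the same way, covered 15 genes in CD4 T cells, 13 in CD8 T cells and 11 in B cells. Its medians were 0.41, 0.18 and 0.93 in wild-type mice, and 0.92, 0.54 and 0.84 in TRIF-KO mice. Rbm3, at 161, 767, 331 and 628 CPM in B cells, had the same order of libraries in all 3 classes. Regulatory T cells numbered 12, 41, 32 and 72, too few for a comparison.

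**Figure D5:**
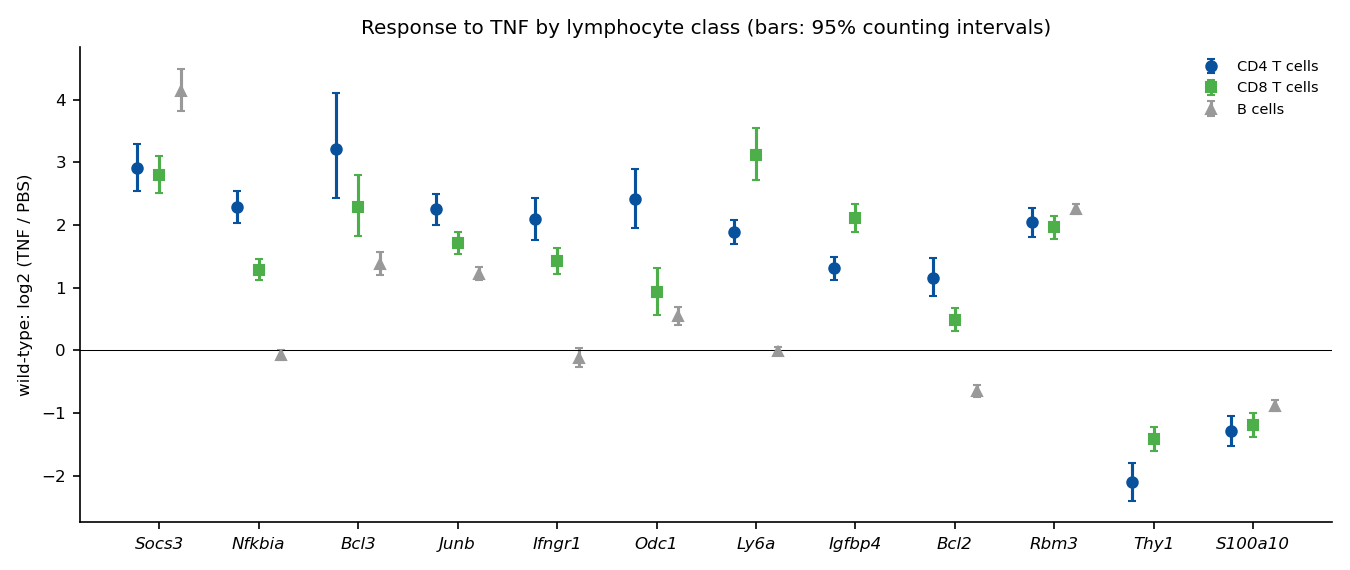
Wild-type log2 ratio of TNF to PBS (vertical axis) of 12 genes in CD4 T cells (circles), CD8 T cells (squares) and B cells (triangles, not drawn for Igfbp4 and Thy1), with 95% counting intervals. Socs3 lay at 2.91 in CD4 and 2.79 in CD8 T cells, and Nfkbia at 2.28, 1.28 and -0.07 in CD4, CD8 and B cells.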

How the data were processed

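Spleen cells of 4 groups were sequenced in 1 droplet library each, and groups were taken from the sample titles. The deposited matrices hold raw UMI counts per gene (32285 features) and barcode, per the file headers, which name cellranger 6.0.1. The submitters' processing notes name Cell Ranger 3.0, Seurat 4.1.1 and the mouse build mm10. How many animals each library came from is not stated in the labels. After the filters and gate of the report, UMIs were summed per library and divided by the class total, with no batch correction. No doublet caller was used, and an alternative left out the highest Scrublet scores (50, 221, 256 and 399 barcodes, of which 1, 3, 5 and 4 were CD4 T cells). Libraries shared 3 to 15 barcodes in pairs, and 0 among CD4 T cells.

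Ratios have exact conditional 95% intervals, levels exact Poisson and shares exact Clopper-Pearson intervals. The difference between responses adds 0.5 to each count and uses a normal approximation. Cells are not replicates, so no test was run, and a gene counts as higher or lower at 2-fold. A gene was left out as possible free RNA where, in all 4 libraries, its CPM was less than 5% of that in some other class with 10 or more cells there. Cells were thinned with a fixed seed.

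The members and the 27 gene lists were chosen with earlier results of these data known. Genes were named by rule, namely the 10 highest and 10 lowest per comparison (6 and 6 for the difference) by the interval bound nearest to 1, together with list members. The text gives a part of them, and the ranking without each gene's top cell was chosen after the values were seen. Promoters are from RefSeq tables of GRCm38.p6. Computations were tested on simulated data and used Python 3.11.15, numpy 2.4.6, scipy 1.17.1, pandas 2.3.3, scanpy 1.11.5 (Scrublet) and matplotlib 3.10.9. Alternatives covered the gate, depth, scaling, low-count filter, mitochondrial limit, doublets and single dominant cells.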

Additional observations from a re-analysis of the deposited data

Results flagged for a closer look

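The search for opposite responses covered only genes picked for the text's comparison of responses, so it gives no count over all measured genes. For 4 of the genes searched, the response to TNF pointed in opposite directions in the genotypes, with both counting intervals clear of 0. Maf, whose levels given above also moved in opposite directions, was not in that set. The difference itself was not tested, since each group is 1 library. Bcl2, an inhibitor of apoptosis, was higher with TNF in wild-type (1.16 on the log2 scale, 0.86 to 1.47) and lower in TRIF-KO (-0.31, -0.51 to -0.12), a difference of -1.47. In CD8 T cells the Bcl2 values were 0.49 and -0.33. Ddit4, an inhibitor of mTORC1, was lower in wild-type (-0.73, -1.05 to -0.41) and higher in TRIF-KO (0.95, 0.75 to 1.16), a difference of 1.67, with -0.55 and 0.86 for Ddit4 in CD8 T cells.

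Ikzf2, a transcription factor of regulatory and activated T cells, stood at -1.38 (-1.87 to -0.90) and 0.57 (0.09 to 1.07), a difference of 1.93, and 29 of its 107 UMIs in the wild-type PBS library lay in 1 cell. The TRIF-KO value was -0.08 with each cell weighted equally and -0.25 with cells thinned to 1500 UMIs, and 0.77 without the top cell of each library. Ikzf2 UMIs were found in 14 TRIF-KO PBS and 25 TRIF-KO TNF cells. Rsad2, an interferon-stimulated gene, stood at -3.95 (-5.20 to -2.91) and 1.87 (1.34 to 2.44), a difference of 5.72. In the wild-type PBS library 57 of the 91 Rsad2 UMIs and in the TRIF-KO TNF library 81 of the 166 lay in 1 cell. The opposite direction was lost where the wild-type value of Rsad2 turned, to 0.38 with the gate at equal depth and to 1.59 without cells of another programme, an alternative chosen after seeing the data.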

How the results depend on the processing

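No paired analysis was possible because each group is 1 library, and for the same reason no replicate could be left out. Of 133 gene ratios past 2-fold, all of genes named in the text, 1591 values under 12 alternatives held 4 of opposite sign. A value counted as opposite only where the main counting interval held 1 sign. Genes past 2-fold that the text does not name were not followed in this way. Counts of genes past 2-fold moved more. In the order wild-type response higher, wild-type response lower, TRIF-KO response higher and lower, PBS comparison higher and lower, TNF comparison higher and lower, and difference higher and lower, the stricter filter on low counts (100 UMIs and 100 CPM) gave 60, 95, 33, 13, 5, 8, 12, 27, 52 and 32, since fewer genes were compared. Thinning to 1500 UMIs per cell gave 203, 399, 106, 75, 96 and 143, then 170 for the TNF comparison higher and 450 and 166 for the difference. With the gate applied at equal depth (36, 71, 143 and 99 cells) the wild-type response had 210 higher, the TRIF-KO response 66 lower, the PBS comparison 81 higher and 76 lower, the TNF comparison 81 higher and the difference 242 higher and 167 lower. The stricter gate (2 Cd4 and 3 CD3 UMIs) gave 46 lower in the TRIF-KO response, 24 higher and 63 lower after PBS, 83 higher after TNF, and 249 and 107 for the difference. Thinning to 3500 UMIs, chosen after seeing the data, gave 20 and 63 after PBS, 66 higher after TNF (52.0% of its genes past 2-fold, against 36.0%) and 254 higher for the difference. Median-of-ratios size factors gave 16 higher after PBS and 85 and 102 for the difference, and the reduced totals 93 higher for the difference. Without the top cell of each gene 14 were lower after PBS and 33 lower after TNF. Reversed values with the gate at equal depth were Isg15 -0.79 and Ly6a -0.02 (differences) and, in wild-type, Itgb1 0.19, Lgals1 0.09, Rsad2 0.38 and the memory list 0.27. In TRIF-KO, Ikzf2 was -0.08 with cells weighted equally and -0.25 thinned to 1500 UMIs, where Zfp36 was -0.39. Without cells holding Ikzf2, Il2ra or Ctla4 UMIs, Odc1 was -0.19 and the activation list -0.04 there. Without cells of another programme, chosen after seeing the data, Rsad2 was 1.59 in wild-type. The causes were not tested. The share of CD4 T cells was 1.49%, 1.43%, 2.65% and 1.47% with the gate at equal depth, 6.20%, 5.46%, 9.58% and 6.40% at no more than 5% mitochondrial UMIs, and 2.84%, 1.56%, 2.86% and 2.45% with the stricter gate. Cells with a Socs3 UMI were 38.5% in the wild-type TNF library at 1000 UMIs, and 12.7%, 75.7%, 11.6% and 46.5% at 3500. Genes under 50 CPM, the TNF receptors and Ticam1 among them, could not be compared at this depth.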
